A study of Mus musculus with 6 samples.

Results

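The 10 genes of the collagen prolyl and lysyl hydroxylation machinery described here in infarcted mouse heart are 10 of 35498 genes with a matched transcript. They were listed by function, as enzymes and their partners. They are the prolyl 4-hydroxylase alpha subunits P4ha1, P4ha2 and P4ha3, the prolyl 3-hydroxylase P3h1 with its partner Crtap, P3h3 (formerly Leprel2), the lysyl hydroxylases Plod1, Plod2 and Plod3, and the peptidyl-prolyl isomerase Fkbp10. All 10 were found and all passed the filter on low counts. The hearts came from C57BL/6J mice of 8 to 10 weeks, taken 7 days after myocardial infarction made by tying off the left anterior descending (LAD) artery. The Runx1_FB_KO group (n = 3) had the genotype Postn CreER+/-; Runx1 fl, and the CTL group (n = 3) Postn CreER+/-; Runx1 WT. Both groups therefore carried the tamoxifen-inducible recombinase, driven by the promoter of periostin, and both ate a tamoxifen diet from surgery onward. Recombination is limited to cells that express periostin, chiefly activated fibroblasts, while RNA was taken from all cells of the ventricle below the ligature. The excised part of Runx1 is not stated in the labels. Runx1_FB_KO replicate 1 was male and replicates 2 and 3 were female, whereas CTL replicate 1 was female and replicates 2 and 3 were male.

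The gene models below are those of GENCODE M21 on GRCm38. P4ha1 (ENSMUSG00000019916) lies at chr10:59323296-59373304, P4ha2 (ENSMUSG00000018906) at chr11:54100095-54131665 and P4ha3 (ENSMUSG00000051048) at chr7:100285520-100319699, all on the plus strand. Plod1 (ENSMUSG00000019055) lies at chr4:147909753-147936767 on the minus strand, Plod2 (ENSMUSG00000032374) at chr9:92542223-92608428 and Plod3 (ENSMUSG00000004846) at chr5:136987019-136996648 on the plus strand. P3h1 (ENSMUSG00000028641) is at chr4:119232915-119248975 and Fkbp10 (ENSMUSG00000001555) at chr11:100415697-100424824, both on the plus strand, and P3h3 (ENSMUSG00000023191) at chr6:124841089-124857752 and Crtap (ENSMUSG00000032431) at chr9:114375134-114390675, both on the minus strand.

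Procollagen chains are modified in the endoplasmic reticulum before they fold into a triple helix. Prolyl 4-hydroxylase, made of catalytic alpha subunits and the beta subunit P4hb, makes the 4-hydroxyproline that keeps the helix stable at body temperature. Lysyl hydroxylases make the hydroxylysine that carries sugars and forms stable cross-links. Hydroxylation of lysines in the non-helical telopeptides by Plod2 is known for the cross-links of scar tissue. Both kinds of enzyme, like the prolyl 3-hydroxylases, need oxygen, iron, 2-oxoglutarate and ascorbate. In the infarcted heart, activated fibroblasts make most of the new collagen.

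Several members are spliced at alternative coding exons, and the sequences of those whose use was estimated are shown here because each defines an annotated form of the enzyme. They are from GENCODE M21 transcripts (GRCm38), on the plus strand, 5′ to 3′. Capitals in the P4ha1 pair mark the 29 of 71 positions at which the exons differ, and the other sequences have no capitals. The Plod2 exon separates the long form of the enzyme from the short one, and each pair in P4ha1 and P4ha2 is used one exon at a time in the annotated full-length transcripts.
Plod2, exon 14 of Plod2-203, chr9:92601985-92602047: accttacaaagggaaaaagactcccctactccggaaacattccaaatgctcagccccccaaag
P4ha1, exon 9 of P4ha1-201, chr10:59354340-59354410: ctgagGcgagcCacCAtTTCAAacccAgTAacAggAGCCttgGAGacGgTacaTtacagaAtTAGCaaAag
P4ha1, exon 9 of P4ha1-203, chr10:59355350-59355420: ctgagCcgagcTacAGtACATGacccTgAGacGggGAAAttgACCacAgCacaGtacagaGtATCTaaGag
P4ha2, exon 13 of P4ha2-202, chr11:54126238-54126297: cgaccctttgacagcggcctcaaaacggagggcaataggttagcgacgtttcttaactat
P4ha2, exon 13 of P4ha2-201, chr11:54126346-54126411: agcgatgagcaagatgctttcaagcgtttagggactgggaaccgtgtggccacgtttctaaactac

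The libraries held 16598561 to 19987279 estimated reads, and the labels give each replicate a number and a sex but do not call it a separate mouse, so p-values measure the spread between these samples. The targeted gene Runx1 had 17.5, 10.9 and 67.4 CPM in Runx1_FB_KO replicates 1, 2 and 3, against 96.4, 86.9 and 85.5 CPM in CTL replicates 1, 2 and 3 (CPM, read counts scaled to library size with TMM factors). The groups did not overlap, and the log2 fold change of -1.48 ± 0.63 (SE) had an edgeR adjusted p = 0.154. Runx1_FB_KO replicate 3 stood apart from the other knockout libraries. Its log2 CPM values correlated across genes at 0.956 to 0.969 with the CTL libraries and at 0.913 and 0.924 with Runx1_FB_KO replicates 2 and 1. Reads of the mitochondrial genome made up 24.5%, 19.6% and 10.4% in Runx1_FB_KO replicates 1, 2 and 3, against 5.36% to 7.11% in CTL. Results are therefore given with and without Runx1_FB_KO replicate 3. That library was singled out by its values in these same data, so p-values without it cannot be read as error rates.

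None of the 10 members passed the threshold with all 6 libraries, though all 10 had a negative log2 fold change. The largest differences were in P4ha3 (-1.47), Fkbp10 (-1.35) and P3h3 (-1.12), and the smallest in P4ha2 (-0.10), P4ha1 (-0.15) and Plod1 (-0.22). The median over the members was -0.84, beside -0.06 over all 14237 genes tested. In bulk tissue, fewer cells of a type and less RNA per cell cannot be told apart. By edgeR 0 of 10 members were called, where 0% of all genes were called. At an unadjusted p under 0.05, 2 members (Crtap and Fkbp10) were lower, against 13.1% of all genes. In 3 members (P4ha3, Crtap and Fkbp10) every knockout library lay below every CTL library, and 18.8% of all genes showed that order. DESeq2 called 1 member lower, Crtap (log2 fold change -0.99, DESeq2 adjusted p = 0.031, between 0.000173 and 0.307 over the alternatives tried), where it called 5.17% of genes lower, and limma-voom called 0.

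Without Runx1_FB_KO replicate 3, 8 of the 10 members fell past the threshold, where 22.5% of the genes tested fell. The 8 were P4ha1, P4ha3, Plod2, Plod3, P3h1, P3h3, Crtap and Fkbp10, and the median over the members was -1.35. P4ha2 (-0.14) and Plod1 (-0.31) did not pass, with edgeR adjusted p = 0.48 and 0.107. With all 6 libraries the smallest edgeR adjusted p among the members was 0.102, so these calls rest on leaving out that library. Over all alternatives tried, the adjusted p of these 8 ran from 0.000173 for Crtap to 0.953 for P4ha1. Scaled by library size alone, all genes had a median of -0.52 and the members one of -1.19.

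**Figure D1:**
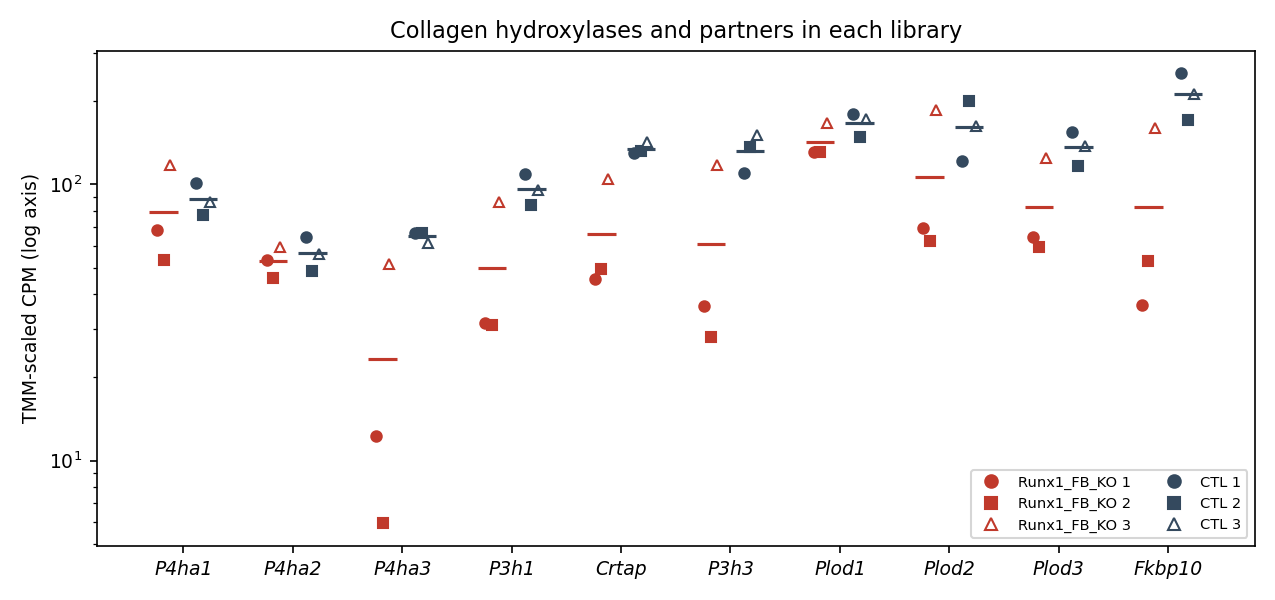
TMM-scaled CPM (log axis) of the 10 members in each library, with Runx1_FB_KO in red on the left and CTL in blue on the right of each gene; bars are group means (n = 3 each). Runx1_FB_KO replicates 1 and 2 lie below the CTL libraries in all members but P4ha2, where replicate 1 at 53.4 CPM lies within CTL, and replicate 3 lies below CTL in 3 members, within it in 6 and above it in 1 (P4ha1).

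The prolyl 4-hydroxylase alpha subunits limit the rate of 4-hydroxyproline formation, and their values differed in how far they lay below CTL. P4ha3, the least studied of the alpha subunits, had 12.3, 5.93 and 51.6 CPM in Runx1_FB_KO replicates 1, 2 and 3, against 66.7, 66.9 and 61.2 CPM in CTL replicates 1, 2 and 3. All knockout values were below CTL, with replicate 2 at 9.14% of the CTL mean and replicate 3 at 79.5%. The log2 fold change was -1.47 (SE 0.70; by edgeR, adjusted p = 0.187), and -2.78 (SE 0.28; by edgeR, adjusted p = 0.000309) without Runx1_FB_KO replicate 3. P4ha1, the main alpha subunit in most tissues, had 68.1, 53.3 and 117.8 CPM in the knockout, against 101.5, 77.8 and 86.2 CPM in CTL. Knockout replicates 1 and 2 lay below CTL, and replicate 3 was the highest of all 6 libraries, at 133.1% of the CTL mean. Its log2 fold change was -0.15 (SE 0.30; by edgeR, adjusted p = 0.738). The log2 fold change of P4ha1 was -0.50 without Runx1_FB_KO replicate 3 (edgeR adjusted p = 0.0447) and 0.07 without Runx1_FB_KO replicate 2. P4ha2, the alpha subunit prominent in cartilage and bone cells, had 53.4, 46.0 and 59.3 CPM in the knockout, against 64.7, 48.8 and 56.1 CPM in CTL. The groups overlapped, with a log2 fold change of -0.10 (SE 0.17; by edgeR, adjusted p = 0.701), or 0.01 without CTL replicate 1.

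Per length, the means of the alpha subunits lay close together in CTL, and P4ha3 had the lowest of them in the knockout. TPM, which corrects for transcript length within a library, averaged 50.3 ± 7.92 for P4ha1, 50.1 ± 7.58 for P4ha2 and 49.99 ± 1.39 for P4ha3 in CTL (SD, n = 3). P4ha3 made up 10.2%, 6.06% and 24.9% of the summed alpha subunit TPM in Runx1_FB_KO replicates 1, 2 and 3, against 31.0%, 37.6% and 31.8% in CTL. The groups did not overlap, and the difference of means was -19.7 percentage points (exact permutation p = 0.1, the smallest that 3 against 3 libraries can give). P4ha1 made up 40.98%, 39.5% and 42.7% in the knockout, against 35.6%, 31.7% and 32.6% in CTL. All knockout values lay above CTL, replicate 3 included, with a difference of 7.74 percentage points (exact permutation p = 0.1), or 6.91 without that library. The P4ha1 and P4ha3 shares are parts of the same total, so a smaller P4ha3 share by itself raises that of P4ha1. For P4ha2 the shares were 48.8%, 54.5% and 32.4% in the knockout and 33.4%, 30.7% and 35.5% in CTL, with overlap (exact permutation p = 0.3). P4hb, the beta subunit, which is also protein disulfide isomerase, had 374, 398 and 699 CPM in the knockout, against 908, 748 and 759 CPM in CTL, and was chosen after its values were seen. Its TPM was 2.96 ± 0.41 times the summed alpha subunit TPM in the knockout and 3.41 ± 0.14 times in CTL (SD, n = 3 each), with overlapping groups (exact permutation p = 0.2).

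**Figure D2:**
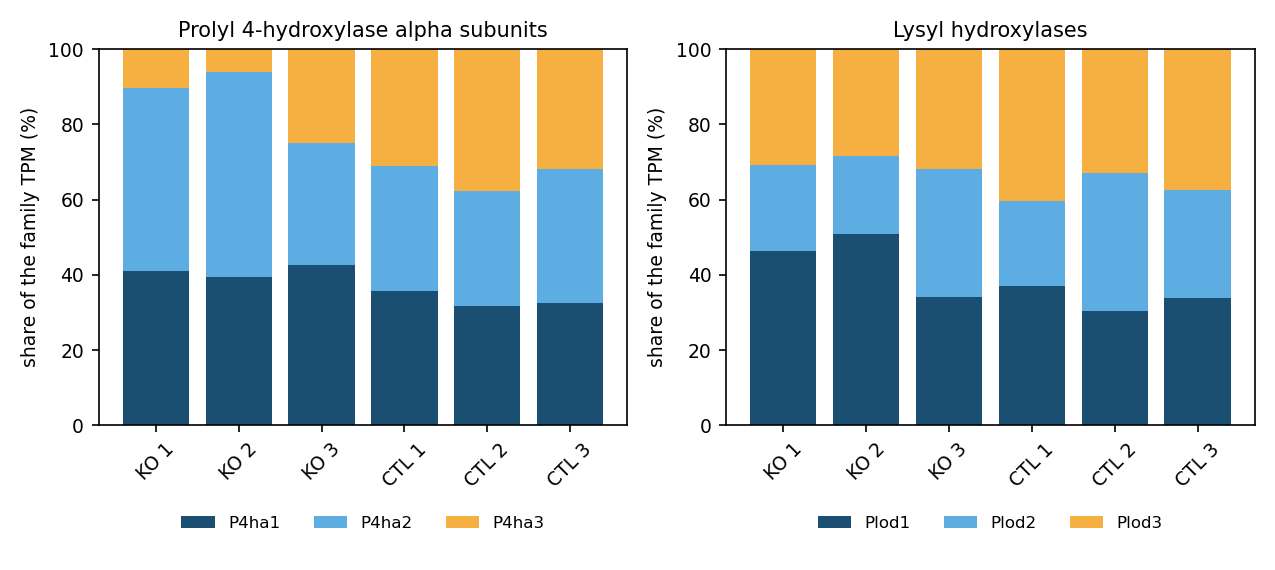
Share of the summed TPM (percent) of the prolyl 4-hydroxylase alpha subunits (left) and of the lysyl hydroxylases (right) in each library, with Runx1_FB_KO replicates (KO) before CTL replicates. P4ha3 takes 6.06% to 24.9% of its family in the knockout and 31.0% to 37.6% in CTL.

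P3h1 makes 3-hydroxyproline at a few specific positions of fibrillar collagen, in a complex with Crtap and the isomerase Ppib. Crtap, which has no catalytic activity of its own and holds the complex together, had 45.4, 49.3 and 104 CPM in Runx1_FB_KO replicates 1, 2 and 3, against 130, 132 and 142 CPM in CTL. The knockout libraries were all below CTL, and those of CTL lay close together. The log2 fold change was -1.02 (SE 0.33; by edgeR, adjusted p = 0.102), and -1.47 (SE 0.13) without Runx1_FB_KO replicate 3 (edgeR adjusted p = 0.000173). P3h1 had 31.5, 31.0 and 86.7 CPM in the knockout, against 109, 84.1 and 95.6 CPM in CTL. Its knockout replicates 1 and 2 were at 32.7% and 32.2% of the CTL mean and replicate 3 within CTL, for a log2 fold change of -0.95 (SE 0.42; by edgeR, adjusted p = 0.161). Leaving out that library gave -1.58 (SE 0.15; by edgeR, adjusted p = 0.000252). The TPM of Crtap was 2.95 ± 0.36 times that of P3h1 in the knockout and 3.07 ± 0.58 times in CTL (SD, n = 3 each), a difference of -0.13 that is smaller than the spread between replicates (exact permutation p = 0.8). Ppib stood at 11.2 ± 1.93 times P3h1 in the knockout and 11.6 ± 0.73 times in CTL (exact permutation p = 0.9). P3h3, which works with P3h4 and Plod1 on lysine hydroxylation in mouse skin collagen, had 36.3, 28.0 and 118 CPM in the knockout, against 110, 137 and 150 CPM in CTL. Replicate 3 was above the lowest CTL library, so the groups overlapped. Relative to Plod1, P3h3 TPM was 0.381, 0.260 and 0.950 in the knockout, against 0.783, 1.23 and 1.12 in CTL (exact permutation p = 0.2). The log2 fold change was -1.12 (SE 0.53; by edgeR, adjusted p = 0.181), and -1.997 (SE 0.20; by edgeR, adjusted p = 0.000273) without Runx1_FB_KO replicate 3.

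None of the lysyl hydroxylases separated the groups by its own level. Plod3, the family member that also adds sugars to hydroxylysine, had 64.3, 59.3 and 124 CPM in Runx1_FB_KO replicates 1, 2 and 3, against 154, 116 and 138 CPM in CTL. Knockout replicate 3 lay within CTL, and the log2 fold change was -0.72 (SE 0.31; by edgeR, adjusted p = 0.159). Without it the value was -1.10 (SE 0.16; by edgeR, adjusted p = 0.00135). Plod2 had 69.8, 62.5 and 186 CPM in the knockout, against 121, 200 and 162 CPM in CTL. Of the 10 members it had the widest CTL range for its mean, and knockout replicate 3 lay within that range. Its log2 fold change was -0.60 (SE 0.45; by edgeR, adjusted p = 0.357), against -1.24 (SE 0.22; by edgeR, adjusted p = 0.0032) without that library. Plod1, which acts on lysines of the helix, had 131.0, 130.9 and 167 CPM in the knockout, against 180, 148 and 173 CPM in CTL. Knockout replicates 1 and 2 were at 78.6% and 78.5% of the CTL mean and replicate 3 equalled it, for a log2 fold change of -0.22 (SE 0.18; by edgeR, adjusted p = 0.401).

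Within the lysyl hydroxylase family, Plod3 took a smaller share of the TPM in every knockout library. It made up 30.8%, 28.4% and 31.9% in Runx1_FB_KO replicates 1, 2 and 3, against 40.3%, 32.9% and 37.5% in CTL, a difference of -6.55 percentage points (exact permutation p = 0.1). Plod1 made up 43.9 ± 8.70% in the knockout and 33.8 ± 3.24% in CTL (SD, n = 3 each), with overlapping groups (exact permutation p = 0.2). For Plod2 the means were 25.8 ± 7.16% in the knockout and 29.4 ± 6.92% in CTL (exact permutation p = 0.6). These 6 family shares cannot pass a threshold of 0.05 with 3 libraries a group. Shares within a family are parts of the same total, so they are not independent of each other. How often such shares separate the groups in other gene families was not computed.

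Fkbp10 encodes an isomerase that binds lysyl hydroxylase Plod2 and is needed for telopeptide lysine hydroxylation. It had 36.5, 52.9 and 160 CPM in Runx1_FB_KO replicates 1, 2 and 3, against 252, 170 and 213 CPM in CTL. All knockout libraries were below CTL, with replicate 1 at 17.2% and replicate 3 at 75.5% of the CTL mean. The log2 fold change was -1.35 (SE 0.54; by edgeR, adjusted p = 0.142), and -2.21 (SE 0.24; by edgeR, adjusted p = 0.000404) without Runx1_FB_KO replicate 3. Relative to Plod2, Fkbp10 TPM was 0.738, 1.29 and 1.28 in the knockout, against 2.97, 1.34 and 1.91 in CTL, without overlap (exact permutation p = 0.1). Exons of Fkbp10 and Plod3 overlap exons of the opposite-strand genes Nt5c3b and Znhit1 over stretches of up to 193 and 315 bases, and an exon of Plod2 overlaps the opposite-strand Gm38391 over 346 bases. Gm38391 has no values of its own here. The labels do not say whether the libraries keep strand, so some reads counted for Fkbp10, Plod3 and Plod2 may belong to those genes.

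**Figure D3:**
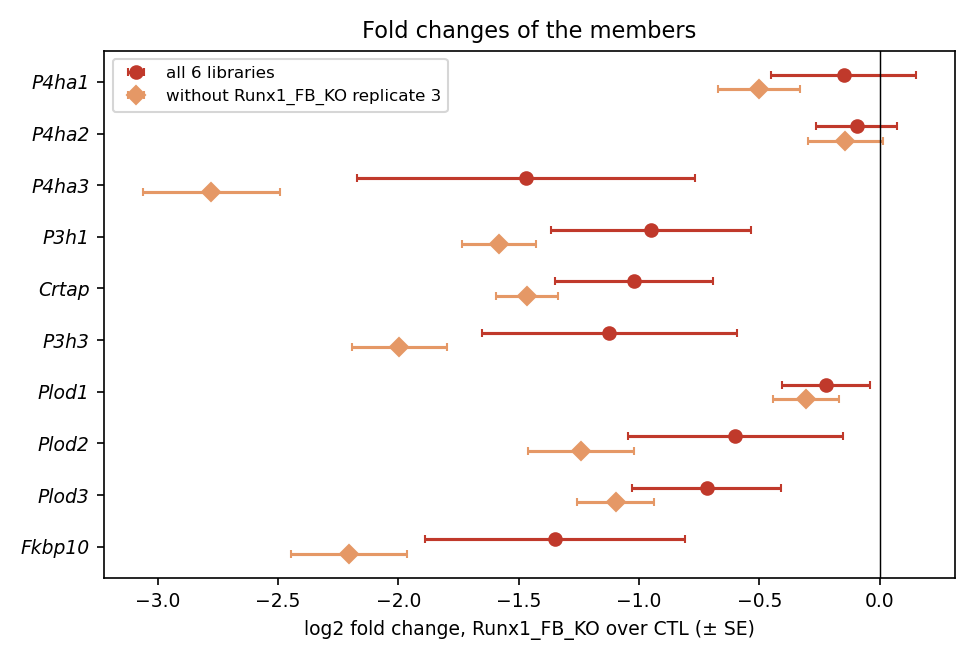
Log2 fold change of each member, Runx1_FB_KO over CTL, with SE bars, from edgeR with all 6 libraries (red circles) and without Runx1_FB_KO replicate 3 (orange diamonds). The values run from -1.47 (P4ha3) to -0.10 (P4ha2) with all libraries, and from -2.78 to -0.14 without replicate 3.

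Levels between the genes can be compared only per length. In CTL, mean TPM ran from Crtap at 171 and Fkbp10 at 160 through Plod3 at 103, P3h3 at 96.95, Plod1 at 94.4, Plod2 at 81.6 and P3h1 at 56.5 to the alpha subunits at about 50. Of these neighbours only Fkbp10 and Plod3 had ranges that did not overlap. In Runx1_FB_KO, Crtap at 59.4 TPM and Plod1 at 52.8 TPM led and P4ha3 at 13.8 TPM was last, and every pair of neighbours overlapped. TPM is not corrected for the larger share of mitochondrial reads in the knockout libraries, so levels between the groups are given in CPM.

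Use of the 3 alternative exon choices printed above overlapped between the groups. Reads from sequence common to several transcripts are split among them by Salmon, so these shares are estimates, and they were chosen as measures after the files were seen, like the TPM ratios. The 63-base exon of Plod2 was in 90.7%, 93.9% and 95.15% of full-length Plod2 TPM in Runx1_FB_KO replicates 1, 2 and 3, against 94.9%, 96.6% and 97.4% in CTL. The groups overlapped and the difference was -3.07 percentage points (exact permutation p = 0.2), so the long form predominated in every library. The first 71-base exon of P4ha1 was in 25.4%, 24.1% and 19.4% in the knockout, against 20.5%, 31.1% and 29.4% in CTL (exact permutation p = 0.3). For the 66-base exon of P4ha2 the shares were 46.0%, 48.8% and 40.6% in the knockout, against 53.5%, 38.8% and 54.3% in CTL (exact permutation p = 0.6).

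Another difference within P4ha1 did separate the groups. P4ha1-202, which lacks the 240-base coding exon 6 (chr10:59348181-59348420), took 17.1%, 16.8% and 26.6% of P4ha1 TPM in Runx1_FB_KO replicates 1, 2 and 3, against 33.8%, 34.7% and 29.96% in CTL. P4ha1-203, which has that exon, took 57.5%, 59.1% and 54.1% in the knockout, against 45.7%, 34.2% and 40.7% in CTL. The differences were -12.7 and 16.7 percentage points (exact permutation p = 0.1 for each), and -15.8 and 18.1 without Runx1_FB_KO replicate 3. In all, 8 transcripts with a mean share of at least 10% were compared in the 3 members that have more than 1 such transcript, and these 2 were the ones without overlap. Both are shares of the same P4ha1 total, so they are not independent of each other. How often transcript shares separate the groups over all genes was not computed. The transcripts also differ in the length of their last exon, so exon 6 was not measured on its own.

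**Figure D4:**
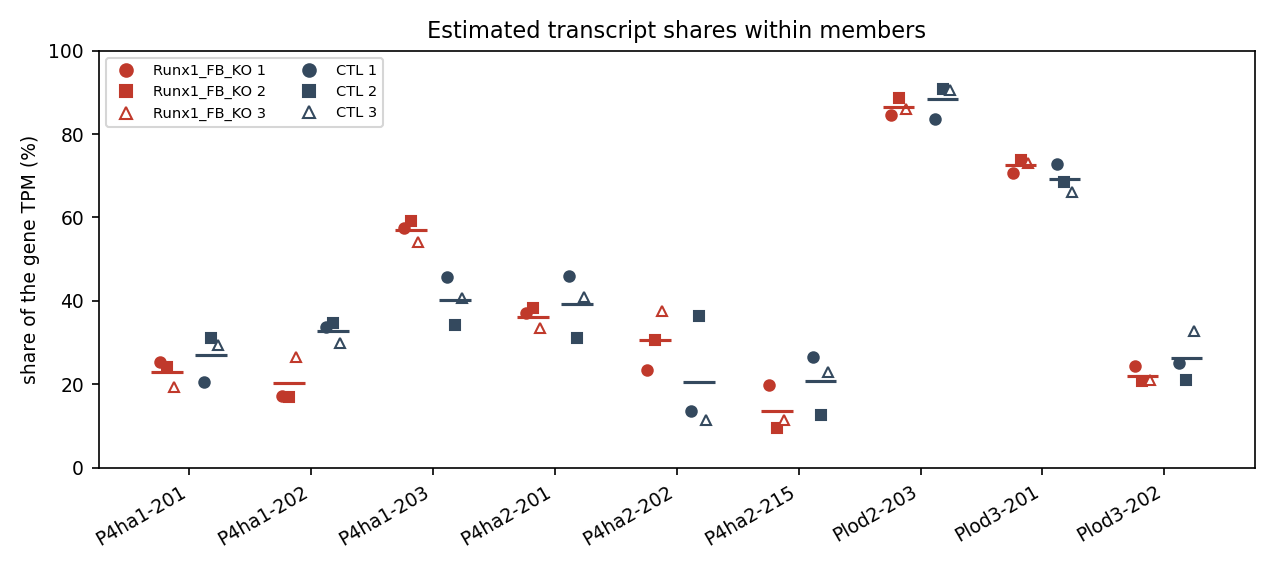
Estimated share of each gene's TPM (percent) given to its main transcripts in P4ha1, P4ha2, Plod2 and Plod3, with Runx1_FB_KO in red on the left and CTL in blue on the right and bars for group means (n = 3 each). P4ha1-203 is higher and P4ha1-202 lower in every knockout library than in any CTL library, and the other transcripts overlap.

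Each enzyme was also set against the mRNA of its main substrates, as its log2 CPM minus the mean log2 CPM of Col1a1, Col1a2 and Col3a1, chosen as the main chains of the scar. These collagen genes had fold changes of -1.30, -1.23 and -0.98 on the log2 scale, with edgeR adjusted p = 0.224, 0.232 and 0.207. Relative to them, 5 members (P4ha1, P4ha2, Plod1, Plod2 and Plod3) were higher in every knockout library than in any CTL library, while 56.7% of all genes were, so that share is near the background. P4ha1 stood 1.24 higher on this log2 scale, at -5.57 ± 0.49 in Runx1_FB_KO and -6.81 ± 0.18 in CTL (SD, n = 3 each). P4ha3 alone among the members was lower without overlap, at -7.64, -8.60 and -7.31 in the knockout, against -7.26, -7.22 and -7.27 in CTL (exact permutation p = 0.1), an order found in 0.336% of all genes. The CTL values of P4ha3 lay within a narrow range, with an SD of 0.03, and Runx1_FB_KO replicate 3 lay just beyond it. The order also depends on the collagens chosen. As log2 CPM minus the CTL mean, P4ha3 had -2.39, -3.43 and -0.33 in Runx1_FB_KO replicates 1, 2 and 3. The 7 fibrillar collagens tested averaged -2.41, -2.65 and -0.21 on that scale, so in replicate 1 P4ha3 was not lower than they were. For P3h1, P3h3, Crtap and Fkbp10 the groups overlapped, with differences of 0.33, 0.05, 0.33 and -0.17. The median over the members was 0.50, beside 1.40 over all genes.

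Other genes of collagen folding and modification had mostly negative fold changes, and again none passed with all libraries. Of 12 such genes, 9 had negative and 3 positive log2 fold changes, 0 were called by edgeR, and the median was -0.65. Without Runx1_FB_KO replicate 3, 9 fell and 1 rose, where 22.5% of all genes fell and 25.1% rose. Ppib had 100.3, 95.6 and 202 CPM in Runx1_FB_KO replicates 1, 2 and 3, against 293, 245 and 260 CPM in CTL (log2 fold change -1.004, edgeR adjusted p = 0.101). Fkbp7, an isomerase of the endoplasmic reticulum, had a log2 fold change of -0.62 (SE 0.23; by edgeR, adjusted p = 0.128). Colgalt2, a galactosyltransferase that adds sugar to hydroxylysine, went the other way, with 16.3, 9.60 and 6.33 CPM in the knockout, against 4.98, 4.82 and 3.98 CPM in CTL (log2 fold change 1.22, SE 0.37, edgeR adjusted p = 0.0929). All its knockout values were above CTL, while those of its paralogue Colgalt1, chosen after its values were seen, were all below (log2 fold change -0.68, edgeR adjusted p = 0.146).

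Genes of procollagen secretion and propeptide removal had a median log2 fold change of -0.40 over 10 genes, 9 negative and 1 positive, with 0 called. Without Runx1_FB_KO replicate 3, 5 fell and 0 rose, where 22.5% of all genes fell and 25.1% rose. Bmp1, the protease that removes the C-propeptide, had -1.07 (SE 0.42; by edgeR, adjusted p = 0.138), its enhancer Pcolce -0.94 and Pcolce2 -0.36. Fibrillar collagens had a median of -1.27, all 7 were negative and 0 were called, and all 7 fell without Runx1_FB_KO replicate 3. Among them Col5a1, Col3a1 and Col5a2 had -1.27, -0.98 and -1.32, with edgeR adjusted p = 0.181, 0.207 and 0.211.

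P4ha1, P4ha2, Plod1 and Plod2 are known targets of hypoxia-inducible factors in other settings, so other hypoxia-responsive genes were set beside them. Of 12, 9 had positive and 3 negative log2 fold changes, with a median of 0.76 and 0 called. Without Runx1_FB_KO replicate 3, 6 rose and 3 fell, where 25.1% of all genes rose and 22.5% fell. Vegfa, a growth factor for vessels, had 246, 227 and 136 CPM in Runx1_FB_KO replicates 1, 2 and 3, against 69.0, 58.4 and 58.9 CPM in CTL (log2 fold change 1.71, SE 0.26, edgeR adjusted p = 0.0682). Egln3, an oxygen-sensing prolyl hydroxylase that does not act on collagen, had 0.996 (SE 0.13), and Pdk1, which slows pyruvate use in mitochondria, had 1.40 (SE 0.30), each with edgeR adjusted p = 0.0682. The 3 negative genes of the list were Ndrg1 (-0.555, lower without overlap), Car9 (-1.04) and Slc2a1 (-0.402), chosen after their values were seen. P4ha1, P4ha2, Plod1 and Plod2 had negative values in the same fit and overlapping groups. The part of hypoxia in these values was not tested.

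The members' mean pattern over the 6 libraries was closest to that of Ikbip, Plekha4, Aldh18a1, Agpat4 and Dse. Their centred log2 CPM differed from the members' mean by a root mean square of 0.05 to 0.06 over the 6 libraries. Dse, an epimerase that makes dermatan sulfate, had a log2 fold change of -0.92, and Aldh18a1, an enzyme of proline synthesis, one of -0.84, with edgeR adjusted p = 0.124 and 0.17. Among the members, P3h1, Crtap and Plod3 lay nearest to the mean pattern, at 0.13, 0.14 and 0.15, and P4ha3 lay farthest, at 0.75.

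**Figure D5:**
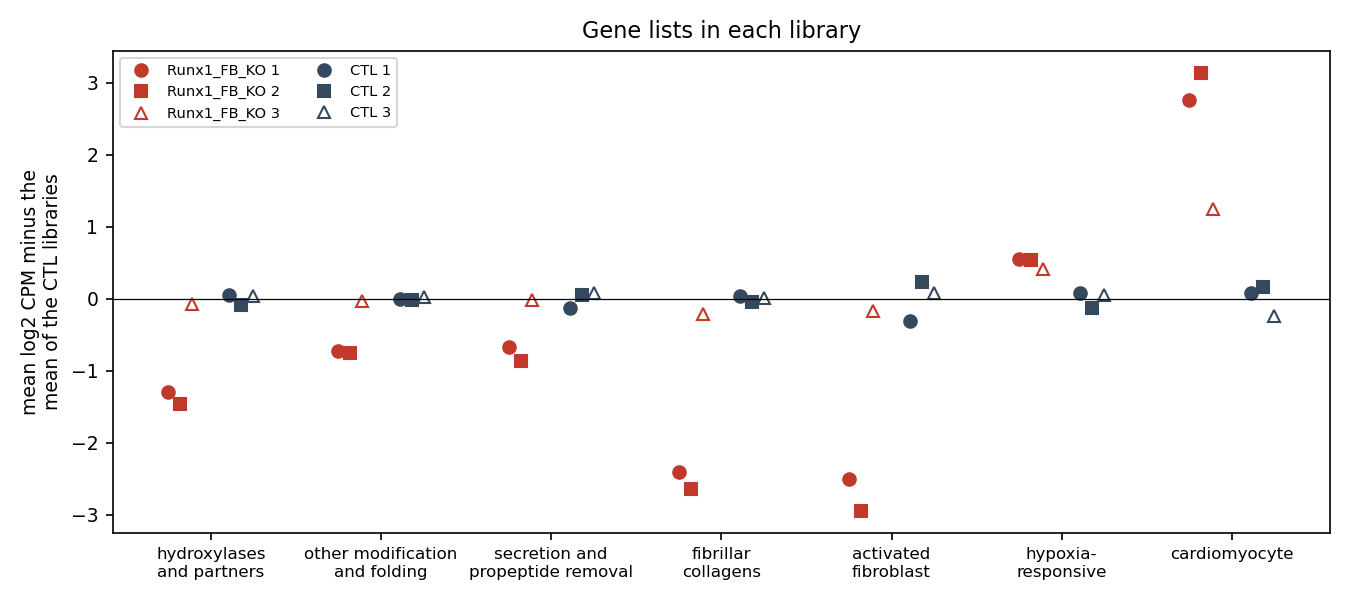
Score of each gene list in each library, as mean log2 CPM minus the mean of the CTL libraries, with Runx1_FB_KO in red on the left and CTL in blue on the right. The members score -1.30, -1.46 and -0.08 in Runx1_FB_KO replicates 1, 2 and 3, and fibrillar collagens -2.41, -2.65 and -0.21, while cardiomyocyte markers score 2.76, 3.14 and 1.25.

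Marker genes of several cell types also differed between the libraries, and no marker of the cell types given here was at 0 in any library. The summed level of 8 cardiomyocyte markers was 53040, 70190 and 16970 CPM in Runx1_FB_KO replicates 1, 2 and 3, against 6663 to 8249 CPM in CTL, and all 8 were higher without overlap, an order that 20.2% of all genes showed. For 6 activated fibroblast markers it was 863, 560 and 4053 CPM in the knockout, against 3216 to 5767 CPM in CTL. Of these, 2 of 6 were lower without overlap, an order that 18.8% of all genes showed. All 6 had negative log2 fold changes (median -1.37), and all 6 fell without Runx1_FB_KO replicate 3, where 22.5% of all genes fell. For 6 fibroblast markers the sum was 2837, 3186 and 2190 CPM in the knockout, against 1714 to 2888 CPM in CTL. The genes and the sum differ in direction there, since 5 of the 6 had negative log2 fold changes (median -0.55), 2 were lower without overlap and 0 higher, while Gsn, with 1533, 1739 and 508 CPM in the knockout, against 365 to 607 CPM in CTL, makes up much of the sum. Without Runx1_FB_KO replicate 3, 4 of the 6 fell and 1 rose, where 22.5% of all genes fell and 25.1% rose. Macrophage markers summed to 506, 468 and 1236 CPM in the knockout, against 1249 to 1737 CPM in CTL. Of these, 4 of 6 were lower without overlap, beside 18.8% of all genes. Endothelial markers summed to 993, 930 and 945 CPM in the knockout, against 831 to 940 CPM in CTL. Kdr had 226, 210 and 124 CPM of this in the knockout, against 56.3 to 77.3 CPM in CTL, and the other 5 of 6 had negative log2 fold changes, with a median over the list of -0.07, 1 lower and 1 higher without overlap. Smooth muscle and pericyte markers summed to 720, 674 and 587 CPM in the knockout, against 343 to 583 CPM in CTL, of which Rgs5 had 639, 602 and 491 CPM in the knockout, against 240 to 485 CPM in CTL. The 4 genes of that list were divided, 2 negative and 2 positive, with Cnn1 at 2.75, 1.01 and 28.4 CPM in the knockout, against 22.5 to 48.1 CPM in CTL. Gsn, Kdr, Rgs5 and Cnn1 were chosen after their values were seen. The 3 of 4 T cell markers that passed the filter summed to 0.917, 1.64 and 2.55 CPM in the knockout, against 5.17 to 8.71 CPM in CTL. Each of these genes had only 2 to 29 reads in a knockout library and 18 to 107 in a CTL library. They passed the filter on low counts through their CTL reads, so this sum is no test of a difference. The part of these shifts in the members' values was not tested.

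The 250 bases before the start site were searched on both strands for the core of the hypoxia response element (ACGTG or GCGTG) and for the RUNX motif (TGTGGT or TGCGGT), the sequence that Runx1 and its relatives bind. RefSeq (GRCm38.p6) gave 9 promoters for 8 members, P3h1 having more than 1 and Plod2 and Fkbp10 none. Its start sites differ in places from the GENCODE gene models given above. The P4ha2 promoter and a P3h1 promoter lie inside the GENCODE genes, and the P3h3 promoter overlaps the end of its gene. The hypoxia core was in 7 of the 9, against 38.6% of all 32851 promoters, and the RUNX motif in 2, against 18.6%. The promoters of P4ha3 and P3h3 had neither, and those of P4ha2 and Crtap had both. A relation of motifs to fold changes was not tested. Those of P4ha3, P4ha2 and Crtap are shown 5′ to 3′ on the strand of the gene, with matches to either motif in capitals. Matches that adjoin or overlap run together. A match does not show binding, and the lack of one says only that these letters are not in this window.
P4ha3, chr7:100285270-100285519, plus strand: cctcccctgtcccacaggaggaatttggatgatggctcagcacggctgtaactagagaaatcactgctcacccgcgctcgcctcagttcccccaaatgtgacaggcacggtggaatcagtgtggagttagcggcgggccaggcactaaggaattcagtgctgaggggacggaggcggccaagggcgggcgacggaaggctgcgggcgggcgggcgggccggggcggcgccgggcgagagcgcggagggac
P4ha2, chr11:54100674-54100923, plus strand: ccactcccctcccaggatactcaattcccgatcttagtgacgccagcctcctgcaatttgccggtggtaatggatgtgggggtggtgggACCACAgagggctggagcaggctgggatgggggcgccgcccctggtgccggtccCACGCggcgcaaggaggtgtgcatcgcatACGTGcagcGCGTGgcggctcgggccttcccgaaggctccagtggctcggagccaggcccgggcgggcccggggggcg
Crtap, chr9:114390713-114390962, minus strand: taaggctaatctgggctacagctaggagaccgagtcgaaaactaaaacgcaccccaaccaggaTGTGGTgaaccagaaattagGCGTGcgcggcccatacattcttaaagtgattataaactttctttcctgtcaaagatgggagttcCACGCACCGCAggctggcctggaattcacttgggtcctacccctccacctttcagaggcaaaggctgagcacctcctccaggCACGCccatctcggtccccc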

How the data were processed

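Poly-A RNA from infarcted mouse ventricles was compared between 3 Runx1_FB_KO and 3 CTL libraries, grouped by the labels. Salmon 1.5.2, DESeq2 1.44.0 and the mm10 (GRCm38) build are named in the submitters' processing notes, and no annotation release is given in the sources used here. The authors deposited estimated counts, TPM values and effective lengths for 116546 transcripts. Deposited TPM is relative to the library's own total and holds no depth.

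Transcripts were assigned to genes with GENCODE M21 (GRCm38), which matched 115977 and left out 569, holding at most 0.102% of a library's reads. Estimated counts were summed over 35498 genes, rounded to whole numbers, filtered with filterByExpr (14237 genes kept, all 10 members among them) and scaled by TMM, with factors of 0.732 to 1.21. The genotypes were compared in R 4.3.3 with edgeR 4.0.16 quasi-likelihood tests without covariates, and p was adjusted by Benjamini-Hochberg across the 14237 genes (threshold 0.05). Standard errors were obtained from the log2 fold change and F, as their ratio after taking the root of F. Each list was scored by averaging log2 CPM (prior count 2) over its genes and subtracting the CTL mean. Shares and ratios of TPM within a library were compared by exact 2-sided permutation tests over the 6 libraries.

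Alternatives were sex as a covariate, a replicate block, other scalings and filters, an effective length offset, DESeq2 1.42.0, limma-voom (limma 3.58.1) and leaving out each library. DESeq2 on the genes that filterByExpr kept was added after seeing the data. The members and lists were chosen with earlier results of these data known. Besides the 10 members, the genes named are the 3 with the smallest p of each pathway list, and the 5 whose centred log2 CPM lay nearest to the members' mean among genes with a mean log2 CPM of at least 2; others are said to be chosen after their values were seen.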

Additional observations from a re-analysis of the deposited data

How the results depend on the processing

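The members had a negative log2 fold change in 168 of 170 fits under an alternative, the exceptions being P4ha1 without Runx1_FB_KO replicate 2 (0.074, with a range of -0.50 to 0.074 over the libraries left out) and P4ha2 without CTL replicate 1 (0.014, -0.19 to 0.014). Over all genes, 889 were called without the filter on low counts, 2824 by DESeq2, 2995 by DESeq2 on the genes that filterByExpr kept, and 0 to 6947 when each library was left out. DESeq2 called 1 member with and without that filter, and 0 to 8 were called when each library was left out, the 8 without Runx1_FB_KO replicate 3. The median of the members ran from -1.35 to -0.61 over the libraries left out and from -1.19 to -0.81 over the other alternatives. With sex as a covariate it was -1.02, with 0 called. No pairing by replicate number was seen. Same-numbered libraries had deviations correlated at -0.05, 0.11 and 0.08, and not every library correlated best with its own number. With 3 libraries a group, and same-numbered ones of opposite sex, this check cannot exclude pairing. The replicate block gave a median of -0.96 and 0 calls. The members relative to fibrillar collagen had a median of 0.50, but 0.80 against all fibrillar collagens tested and -0.70 against fibroblast markers; the direction depends on the genes set as reference. Over the libraries left out the P4ha1 share differed by 6.91 to 8.89 and the Plod2 share by -7.64 to 0.05 percentage points. The causes were not tested. With 3 libraries a group, no exact test could give a p below 0.1.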

Other observations

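Other 2-oxoglutarate dioxygenases, which share their cofactors with the collagen hydroxylases, were listed together with ascorbate transporters. Of these 7 genes 6 were tested and edgeR called 0, with a median log2 fold change of 0.86. All 5 dioxygenases had positive values. The ascorbate transporter Slc23a2, chosen after its values were seen, had a negative one (-0.33, edgeR adjusted p = 0.218), and Slc23a1 did not pass the filter. Without Runx1_FB_KO replicate 3, 4 rose and 0 fell, where 25.1% of all genes rose and 22.5% fell. Egln1, the main oxygen sensor of the hypoxia pathway, had 428, 473 and 160 CPM in Runx1_FB_KO replicates 1, 2 and 3, against 99.0, 112 and 97.0 CPM in CTL (log2 fold change 1.78, SE 0.40, edgeR adjusted p = 0.0682). Hif1an, an asparaginyl hydroxylase of the same pathway, had 110, 125 and 69.6 CPM in the knockout, against 50.4, 53.7 and 55.2 CPM in CTL (log2 fold change 0.94, edgeR adjusted p = 0.0712). Every knockout library was above CTL for both genes.

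Chondro-osteogenic markers summed to 26.3, 16.5 and 273 CPM in Runx1_FB_KO replicates 1, 2 and 3, against 147, 548 and 457 CPM in CTL replicates 1, 2 and 3. Of the 5 genes all had negative log2 fold changes, 0 were called by edgeR and 0 separated the groups. Without Runx1_FB_KO replicate 3, 4 fell, where 22.5% of all genes fell. Col2a1 was at 0 reads in Runx1_FB_KO replicates 1 and 2, and Chad in CTL replicate 1; both were chosen after their values were seen.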
